A study of Mus musculus with 6 samples.

Results

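The genes described here are 38 imprinted genes with roles in growth and development, taken by name from a fixed list. That list was made with earlier results of these data known. Of them, 36 were measured among 21800 genes tested. They were examined in hearts of mouse embryos at embryonic day 9.5, in 3 pools of Arid3b-null embryos and 3 pools of wild-type embryos, each pool made from 4 embryos. The dissected tissue held the heart tube with the mesoderm and endoderm of the pharynx below it. Arid3b belongs to a family of proteins that bind AT-rich DNA, and the design asks what its loss does to gene expression in the early heart. For neither group do the labels name a strain, an allele design or a treatment. A pooled sample shows an average over embryos, so differences between embryos of a pool are not seen. RNA was labelled with Cy3 and hybridised to a mouse array from Agilent, a glass slide of oligonucleotide probes that reads relative signal per probe.

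An imprinted gene is transcribed mainly from the copy inherited from the mother or mainly from the copy inherited from the father. The choice is set by DNA methylation laid down in egg or sperm at an imprinting control region, and a control region often governs a cluster of neighbours, called a domain here, through CTCF binding or a long noncoding RNA. Many paternally expressed genes, such as Igf2, promote fetal and placental growth, and many maternally expressed genes, such as Cdkn1c, Grb10 and Igf2r, restrain it. Several members of the Kcnq1 and Peg10-Sgce domains are imprinted in placenta but not, or less strictly, in the embryo. The array reads both alleles together, so a changed signal does not show which allele changed.

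Every value for a gene below is a log2 signal minus the 75th percentile of its own array, and each change is the Arid3b-null mean minus the wild-type mean on that scale. Before that step the percentile stood at 9.47, 9.29 and 9.02 on the Arid3b-null arrays 1 to 3, against 9.5, 9.57 and 10.16 on the wild-type arrays. Each of the 3 slides held the Arid3b-null and the wild-type pool of the same number, and the null array minus the wild-type array gave -0.03, -0.28 and -1.14 for that percentile on slides 1 to 3. Wild-type arrays always lay at the same position of the slide, so position and genotype cannot be told apart. Arid3b itself fell 6.27-fold (-2.65 ± 0.26 SE, limma adjusted p = 0.00194), and no Arid3b-null pool overlapped a wild-type pool. Of 15 heart muscle genes, 15 were well above background on every array. Of them 1 was called higher in null hearts (6.67%, against 6.64% of all genes), which was Nppa with 1.27 (limma adjusted p = 0.00764). With 3 pools in each group the precision of every value is limited, and p-values measure the spread between pools only.

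In the null hearts 4 of the 36 measured imprinted genes rose and 2 fell, by limma at a Benjamini-Hochberg adjusted p under 0.05. The risers were the trophoblast transcription factor Ascl2, the Ras exchange factor Rasgrf1, the zinc finger gene Zim1 and the long noncoding RNA Meg3. The genes that fell were Magel2, of the MAGE family, and Nap1l5, a nucleosome assembly protein-like gene. As a share this was 11.1% higher and 5.56% lower, against a background of 6.64% higher and 3.81% lower, or 10.5% in either direction, over all genes tested. Rasgrf1 was well above background on the null arrays only, so it entered the test through the group where it is high, and its rise is given as a description. Over the 35 genes well above background on all 6 arrays, a refit called 5 higher (14.3%) and 3 lower (8.57%), against 8.02% and 4.39% of the 19394 genes kept that way. Those were Ascl2, Zim1, Meg3, Dlk1 and Igf2r, and Magel2, Nap1l5 and Cdkn1c. In these pooled tissues, fewer cells of a type and less RNA per cell cannot be told apart.

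The genes of the list that were not called had smaller changes than the called ones. The list's medians and counts below cover all 36 measured genes, the called genes included. Rasgrf1, which entered the test through its null arrays, is thus counted among the higher genes. The median change over the 36 was 0.2, against 0.03 over all genes, with 20 positive and 16 negative. Groups did not overlap for 11 genes that were higher in null hearts (30.6%, against 18.1% of all genes) and for 5 that were lower (13.9%, against 14.9%), where 32.9% of all genes did not overlap in either direction. At an unadjusted p under 0.05 stood 16 of the 36, the called genes among them (44.4%, against 26.9% of all genes). The median was 0.32, 0.15 and 0.14 within slides 1 to 3. Slide blocking, which fits each slide's own level as a term, gave other counts. Limma then called 2 of the 36 higher, Ascl2 and Rasgrf1, and 0 lower, where 3 lower genes had an unadjusted p under 0.05. Over all genes that fit called 2.47% higher and 0.931% lower. Without null pool 3, where trophoblast genes were high, 3 rose and 2 fell. The count of rises was 2 without null pool 1, null pool 2 or wild-type pool 2, and the count of falls was 1 without null pool 2 or wild-type pool 2.

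Split by the parental copy that is expressed, 3 of 14 measured maternally expressed genes rose (21.4%) and 0 fell by limma, with a median change of 0.31. At an unadjusted p under 0.05, 6 of the 14 were higher and 2 lower (57.1% in either direction, against 26.9% of all genes). Among 21 measured paternally expressed genes, 1 rose (4.76%), which was Rasgrf1, and 2 fell (9.52%), with a median of 0.09. Of these 21, 5 were higher and 3 lower at an unadjusted p under 0.05 (38.1%). Over all genes tested, limma called 6.64% higher and 3.81% lower. Within slides 1 to 3 the maternal median was 0.36, 0.21 and 0.43, and the paternal median was 0.34, 0.09 and -0.1. No test of the difference between these sets was made, and on slide 1 the medians were nearly equal. Gnas, which gives transcripts from either parental copy, had a change of -0.08 (adjusted p = 0.806). H19, the maternally expressed noncoding RNA beside Igf2, had no matching probe and is not analysed here. The probe of Rtl1, a retrotransposon-derived gene needed for placental vessels, was well above background on 0 arrays and was not tested.

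**Figure D1:**
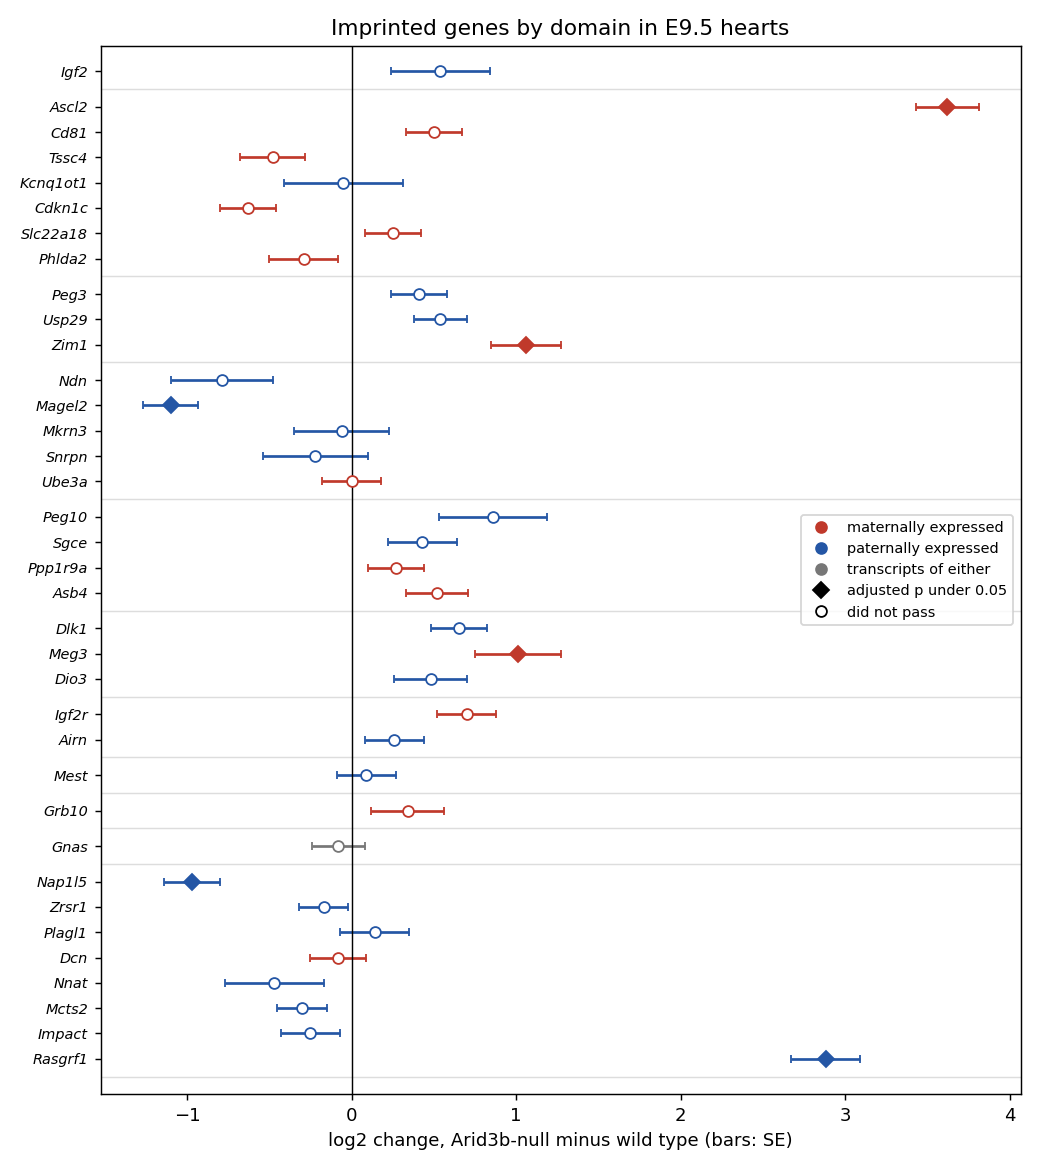
Log2 change (Arid3b-null minus wild type, horizontal axis) of the 36 measured imprinted genes, grouped by domain, with bars for the moderated SE. Filled diamonds mark the 6 genes past the test, colours mark the expressed parental copy, and the fitted changes of Ascl2 (3.62) and Rasgrf1 (2.88) stand to the right of all others.

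The promoters of 4 of the changed genes are shown because imprinting marks are methylation at CpG sites; these windows are promoters and not the control regions of the domains. They are RefSeq windows of GRCm38.p6, with 250 bases before to 50 bases after the start of the gene, and capitals mark CpG dinucleotides. The windows are chr7:142969215-142969514 on the minus strand for Ascl2, chr9:89909525-89909824 on the plus strand for Rasgrf1, chr7:6696383-6696682 on the minus strand for Zim1 and chr6:58907077-58907376 on the minus strand for Nap1l5.
Ascl2: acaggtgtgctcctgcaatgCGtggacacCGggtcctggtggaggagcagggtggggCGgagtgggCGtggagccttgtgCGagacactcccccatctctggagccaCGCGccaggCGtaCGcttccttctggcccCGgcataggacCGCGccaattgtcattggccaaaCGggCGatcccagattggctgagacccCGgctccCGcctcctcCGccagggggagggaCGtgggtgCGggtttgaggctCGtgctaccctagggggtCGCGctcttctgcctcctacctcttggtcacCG
Rasgrf1: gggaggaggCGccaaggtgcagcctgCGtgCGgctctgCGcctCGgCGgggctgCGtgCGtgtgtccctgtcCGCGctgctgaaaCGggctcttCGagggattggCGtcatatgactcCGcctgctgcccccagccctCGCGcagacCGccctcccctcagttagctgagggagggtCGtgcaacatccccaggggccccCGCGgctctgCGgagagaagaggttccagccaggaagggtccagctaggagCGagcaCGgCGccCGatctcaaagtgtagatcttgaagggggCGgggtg
Zim1: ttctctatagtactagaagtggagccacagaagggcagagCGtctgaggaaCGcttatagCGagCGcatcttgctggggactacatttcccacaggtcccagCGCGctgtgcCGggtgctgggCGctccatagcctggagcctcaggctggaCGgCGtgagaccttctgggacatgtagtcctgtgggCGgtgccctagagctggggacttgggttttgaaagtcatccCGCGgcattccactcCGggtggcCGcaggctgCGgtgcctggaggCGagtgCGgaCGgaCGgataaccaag
Nap1l5: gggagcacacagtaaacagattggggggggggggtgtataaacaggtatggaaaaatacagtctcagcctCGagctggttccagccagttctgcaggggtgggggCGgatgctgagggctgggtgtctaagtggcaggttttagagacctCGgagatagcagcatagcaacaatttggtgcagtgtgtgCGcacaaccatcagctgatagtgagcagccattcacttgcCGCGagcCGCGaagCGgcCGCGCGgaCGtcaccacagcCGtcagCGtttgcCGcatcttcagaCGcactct

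The Ascl2 window held 23 CpG sites, the Rasgrf1 window 26, the Zim1 window 20 and the Nap1l5 window 17, against a median of 7 over 32851 windows of the table. The Magel2 window held 10, and the 2 windows of Meg3 held 13 and 1. The table had 46 windows for 31 of the listed genes, with a median of 15.5 CpG sites. Methylation was not measured in these samples.

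The hexamer TGCCGC, searched on both strands, is the site that the imprint protector ZFP57 recognises when methylated. It stood in 11 of the 46 windows (23.9%), against 3813 of all 32851 windows (11.6%). The hexamer itself holds a CpG, and the 46 windows had a median of 15.5 CpG sites, against 7 over all windows. No share matched for CpG content was computed, so the 2 shares do not show enrichment of the site. Windows of 1 gene can overlap, as those of Mest do, so the 11 are not independent. The hexamer occurred in 8 of 26 windows of paternally expressed genes (30.8%) and in 3 of 16 of maternally expressed genes (18.8%). Of the promoters printed, Nap1l5 held 2 copies and Zim1 held 1, while Ascl2 and Rasgrf1 held 0. A match describes letters and is not a bound site.

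Ascl2, at the end of the Kcnq1 domain on chromosome 7, had the largest change of the 36. It encodes a basic helix-loop-helix factor that maintains trophoblast progenitors. It stood at -0.07, 0.12 and -0.02 in the null pools, against -3.79, -3.26 and -3.79 in the wild-type pools. The null pools lay within a fraction of a log2 unit of each other and far above every wild-type pool. The rise was 12.3-fold (3.62 ± 0.19 SE, adjusted p = 0.000291), and it was 3.72, 3.38 and 3.77 within slides 1 to 3. With slide blocking the adjusted p was 0.00113.

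Because Ascl2 is a trophoblast gene, a list of 24 trophoblast markers was set beside it. Of these, 11 were measured and 0 passed limma's adjusted test, while 3 had an unadjusted p under 0.05 (27.3%, against 26.9% of all genes). Their summed linear level over 10 genes was 2.45, 2.73 and 46.8 in null pools 1 to 3, against 1.67, 1.66 and 1.69 in wild-type pools 1 to 3. Gcm1, a bright marker, had no value in null pool 1 and was left out of that sum. It read 4.62 and 4.75 in null pools 2 and 3, against 3.23, 1.7 and 3.46 in wild-type pools (limma adjusted p = 0.0688). The sum thus does not show that trophoblast signal was confined to null pool 3. Prl3d1, a placental lactogen of giant cells, differed by slide between the genotypes by -0.01, 2.02 and 8.08 log2 units. Rhox6, a placental homeobox gene, stood at -5.86, -4.57 and -0.29 in null pools, against -5.66, -5.83 and -6.04 in wild-type pools. Prl3d1 and Rhox6 were far higher in null pool 3 than in null pool 1, where both read near the wild-type pools. Ascl2 was as high in null pool 1 as in null pool 3. Among the 13 markers with no probe kept were Tpbpa, of spongiotrophoblast, Cdx2, of trophoblast stem cells, and Syna, of syncytiotrophoblast. Without null pool 3 the change of Ascl2 was 3.64 (adjusted p = 0.00161).

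**Figure D2:**
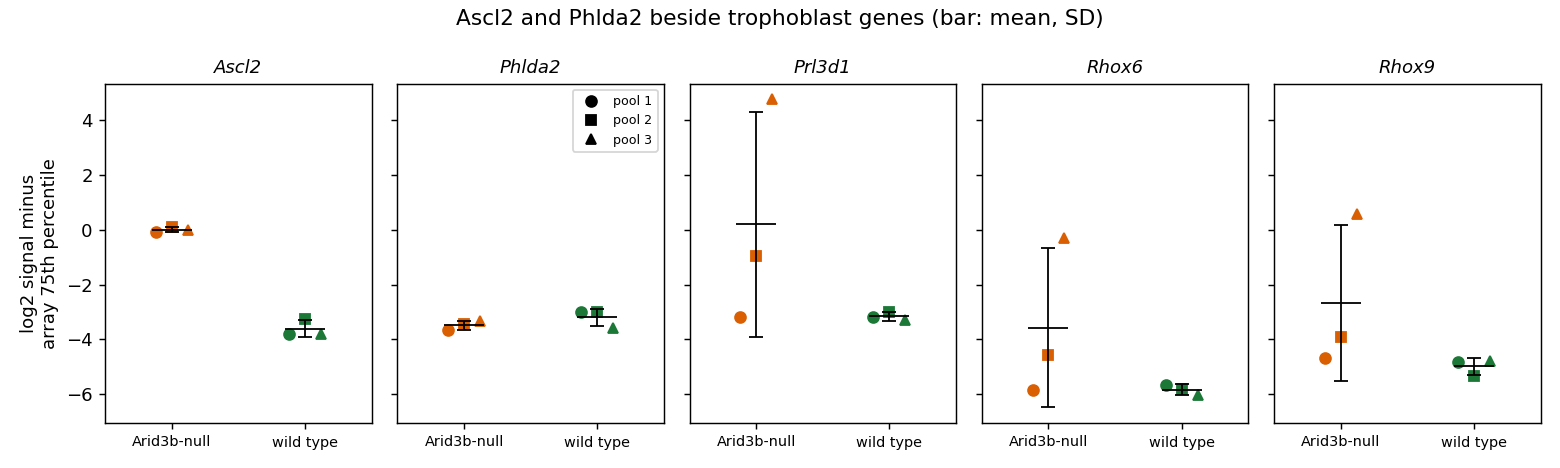
Log2 signal relative to the array 75th percentile (vertical axis) of the imprinted genes Ascl2 and Phlda2 and of 3 trophoblast genes in each Arid3b-null and wild-type pool, with the mean and SD of each group. Ascl2 is between -0.07 and 0.12 in all 3 null pools, while Prl3d1, Rhox6 and Rhox9 are high in null pool 3.

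The other maternally expressed genes of the Kcnq1 domain did not pass the test. Cdkn1c, which encodes the cell cycle inhibitor p57Kip2, stood at 6.19, 5.8 and 5.89 in null pools, against 6.53, 6.68 and 6.56 in wild-type pools. All 3 null pools were below all 3 wild-type pools, and the change of -0.63 ± 0.17 SE missed the threshold at an adjusted p of 0.0553. Over the alternative settings its adjusted p ran between 0.0339 and 0.242 and its change between -0.81 and -0.55.

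Phlda2, which restrains placental growth, stood at -3.67, -3.45 and -3.34 in null pools, against -3.02, -3.01 and -3.57 in wild-type pools. The groups overlapped, and the change was -0.29 (adjusted p = 0.411). Tetraspanin gene Cd81 had a change of 0.5 (adjusted p = 0.109) and Tssc4, a splicing-related gene, one of -0.48 (adjusted p = 0.174), each with groups that did not overlap. Slc22a18, a transporter-like gene, had 0.25 (adjusted p = 0.381). Kcnq1ot1, the paternally expressed noncoding RNA that silences the domain in cis, stood at -0.74, -1.24 and -0.47 in null pools, against -1.13, -1.17 and 0.01 in wild-type pools. Its change was -0.05 (adjusted p = 0.946), so the domain had 1 gene called higher among 7 (14.3%, against 6.64% of all genes).

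Beside Ascl2 in the gene order lies Tspan32, a tetraspanin of blood cells that is imprinted in placenta. It stood at -0.27, 0.24 and -0.06 in null pools, against -1.31, -1.86 and -1.43 in wild-type pools, and rose by 1.5 ± 0.21 SE (adjusted p = 0.00733). The other measured neighbours were Th with -0.04 (adjusted p = 0.929), Ins2 with 0.33 (adjusted p = 0.482) and R74862 with 0.45 (adjusted p = 0.131). Of 9 measured red cell markers, 1 was called higher (11.1%, against 6.64% of all genes), and their median change was 1.02. At an unadjusted limma p under 0.05 stood 8 of the 9, all 8 higher (88.9%, against 26.9% of all genes in either direction). The called gene was Gata1 with 1.42 (limma adjusted p = 0.0202, and 0.0644 with slide blocking). The part of blood cells in the Tspan32 rise was not tested.

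Rasgrf1, on chromosome 9, encodes a guanine nucleotide exchange factor that activates Ras and is best known from brain. Its probe read -5.07, -4.88 and -4.91 in null pools, against -7.5, -7.8 and -8.19 in wild-type pools. It was well above background on 3 null arrays and on 0 wild-type arrays, so the wild-type readings do not measure its level. Set against the dimmest signals that counted as well above background on the wild-type arrays, the null mean was 4.18-fold higher. That fold rests on this background correction and is not a strict lower limit. The limma fit to the measured readings gave an adjusted p of 0.000671, which is not a test of that fold. The probe passed the filter through the null arrays alone. The measured readings differed by 2.43, 2.92 and 3.28 within slides, and with slide blocking the adjusted p was 0.00256. With the normexp background correction the change was 0.77 (adjusted p = 0.0277), so its size depends on how background is removed. Its measured neighbours Minar1, Ctsh, Tmed3 and Morf4l1 had changes of 0.75, 0.54, 0.49 and 0.08, and none of these 4 passed the test.

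In the Peg3 domain of chromosome 7, all 3 measured genes lay higher in every null pool than in any wild-type pool, as did 18.1% of all genes. Of the 3, 1 passed the test, where 6.64% of all genes were called higher. Zim1, a maternally expressed zinc finger gene, stood at -0.7, -0.73 and -1.05 in null pools, against -1.57, -1.92 and -2.18 in wild-type pools. It rose 2.09-fold (1.06 ± 0.21 SE, adjusted p = 0.0213), and its second probe gave 0.84 (adjusted p = 0.0408). Within slides the difference was 0.87, 1.19 and 1.13. With slide blocking the adjusted p was 0.0625, and the adjusted p was also above 0.05 without null pool 1 (0.0506), null pool 2 (0.0815), wild-type pool 2 (0.0822) or wild-type pool 3 (0.0622).

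Paternally expressed Peg3, a zinc finger gene, stood at 3.55, 3.28 and 3.14 in null pools, against 2.92, 2.86 and 2.97 in wild-type pools, a change of 0.41 (adjusted p = 0.17). Usp29, a ubiquitin peptidase gene that starts beside Peg3 on the other strand, stood at -2.43, -2.1 and -2.16 in null pools, against -2.73, -2.76 and -2.82 in wild-type pools, a change of 0.54 (adjusted p = 0.0713). Both differences were small, and neither passed. The domain median was 0.63, 0.66 and 0.66 within slides 1 to 3.

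The Dlk1-Dio3 domain of chromosome 12 holds paternally expressed coding genes and maternally expressed noncoding RNAs. Meg3, the first of those RNAs, stood at 5.57, 5.25 and 4.92 in null pools, against 4.15, 3.9 and 4.67 in wild-type pools. Null pool 3 was only slightly above wild-type pool 3. It rose 2.01-fold (1.01 ± 0.26 SE) at an adjusted p of 0.0497, and the difference within slides was 1.42, 1.35 and 0.25. Its 2 dimmer probes gave 0.78 (adjusted p = 0.145) and 0.39 (adjusted p = 0.266), and with slide blocking the adjusted p was 0.135. The call was thus at the threshold, and it was lost in 13 of 17 alternatives.

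Dlk1, a transmembrane protein of the Notch ligand family that marks fetal growth, stood at 5.75, 5.57 and 5.42 in null pools, against 5.11, 4.78 and 4.9 in wild-type pools. The groups did not overlap, and the change of 0.65 ± 0.17 SE missed the threshold at an adjusted p of 0.0523, which ran between 0.0301 and 0.321 over the alternatives. Dio3, the deiodinase that inactivates thyroid hormone, stood at -4.46, -4.51 and -5.17 in null pools, against -5.29, -5.11 and -5.18 in wild-type pools, with a change of 0.48 (adjusted p = 0.213). Around Meg3, the noncoding gene 6430411K18Rik, taken as a neighbour and not listed, rose by 1.34 ± 0.24 SE (adjusted p = 0.0169). Mirg, a host of microRNAs, had 0.68 (adjusted p = 0.0598) and Begain 0.87 (adjusted p = 0.0847). The domain's 3 measured members had positive changes, as did 52.6% of all genes, with a median of 0.65.

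**Figure D3:**
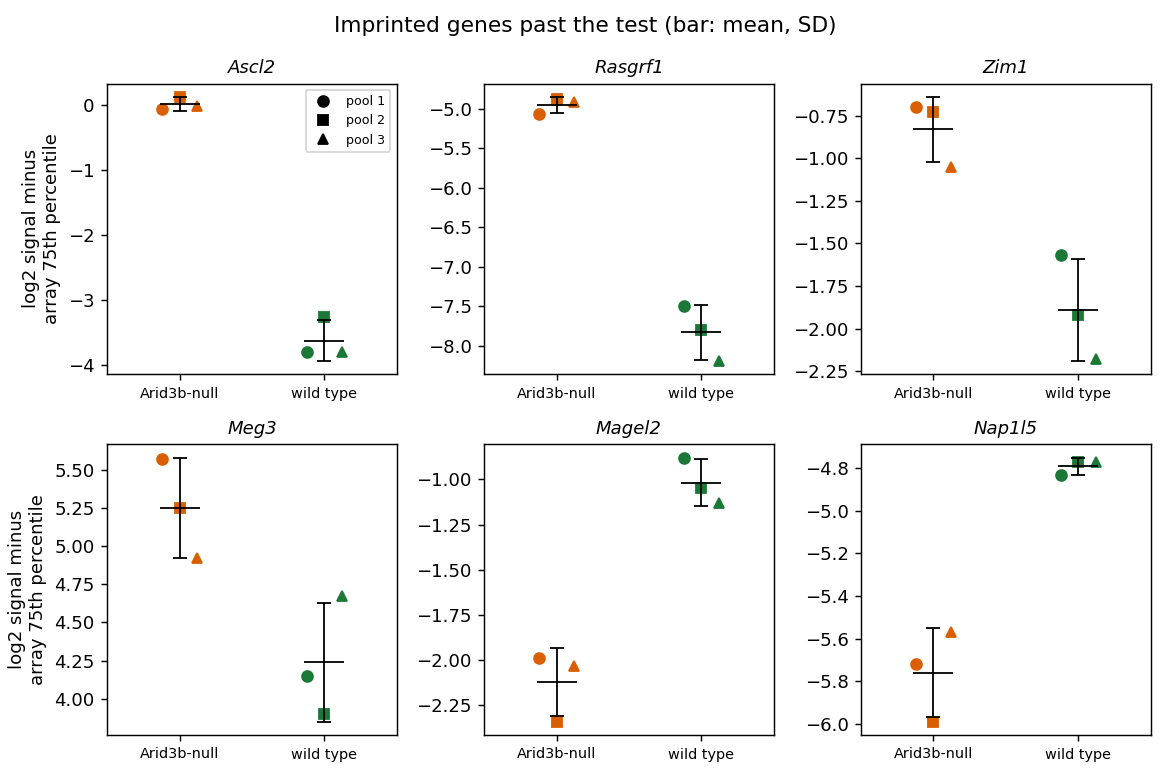
Log2 signal relative to the array 75th percentile (vertical axes, a scale of its own in each panel) in each Arid3b-null and wild-type pool for the 6 imprinted genes past the test, with the mean and SD of each group. The groups do not overlap in any panel, and the wild-type values of Rasgrf1 were not well above background.

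Both genes that fell are paternally expressed. Magel2, in the Snrpn domain of chromosome 7, encodes a MAGE protein that works with a ubiquitin ligase in endosomal recycling and is known from hypothalamus. It stood at -1.99, -2.34 and -2.03 in null pools, against -0.88, -1.05 and -1.13 in wild-type pools. It fell 2.15-fold (-1.1 ± 0.17 SE, adjusted p = 0.00944), with differences of -1.11, -1.29 and -0.9 within slides and an adjusted p of 0.0569 with slide blocking. In each slide the null pool was the lower, by nearly the same amount.

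The remaining genes of the Snrpn domain differed by slide. Ndn, which encodes necdin, a growth suppressor of neurons, stood at 0.97, 0.55 and 0.11 in null pools, against 0.88, 1.25 and 1.86 in wild-type pools, a change of -0.79 (adjusted p = 0.156). Snrpn, a spliceosomal protein gene, stood at 0.64, 0.12 and -0.1 in null pools, against -0.06, 0.35 and 1.03 in wild-type pools, a change of -0.22 (adjusted p = 0.706). In both genes the null pool was the higher on slide 1 and the lower on slides 2 and 3. Mkrn3, a makorin ubiquitin ligase gene, had -0.06 (adjusted p = 0.913) and differed by 0.83, -0.24 and -0.78 within slides. Nnat, the membrane proteolipid gene neuronatin on chromosome 2, differed by 0.34, -0.46 and -1.28 (change -0.47, adjusted p = 0.364). These differences had the same order over slides as the difference in array 75th percentile, and the part of array brightness in them was not tested. Ube3a, a ubiquitin ligase gene that is imprinted in neurons, had a change of 0 (adjusted p = 0.992). Neural markers were lower as well, and 3 of 13 measured fell (23.1%, against 3.81% of all genes). Map2 fell by 1.46, Dcx by 1.3 and Tubb3 by 1.16 on the log2 scale (limma adjusted p = 0.00578, 0.0245 and 0.0315). The median change of the 13 was -0.55. With slide blocking the adjusted p was 0.0317 for Map2, 0.0663 for Dcx and 0.0959 for Tubb3. The summed linear level of the 13 was 10.4, 9.38 and 9.35 in null pools, against 10.3, 11 and 11.1 in wild-type pools, most of it from Nes, a filament gene of progenitors with a change of -0.04. Without Nes, left out after its level was seen, the sum of the other 12 was 1.77, 1.44 and 1.79 in null pools, against 2.59, 2.36 and 2.66 in wild-type pools. Every null pool was then below every wild-type pool, and the part of neural cells in the fall of Magel2 was not tested.

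**Figure D4:**
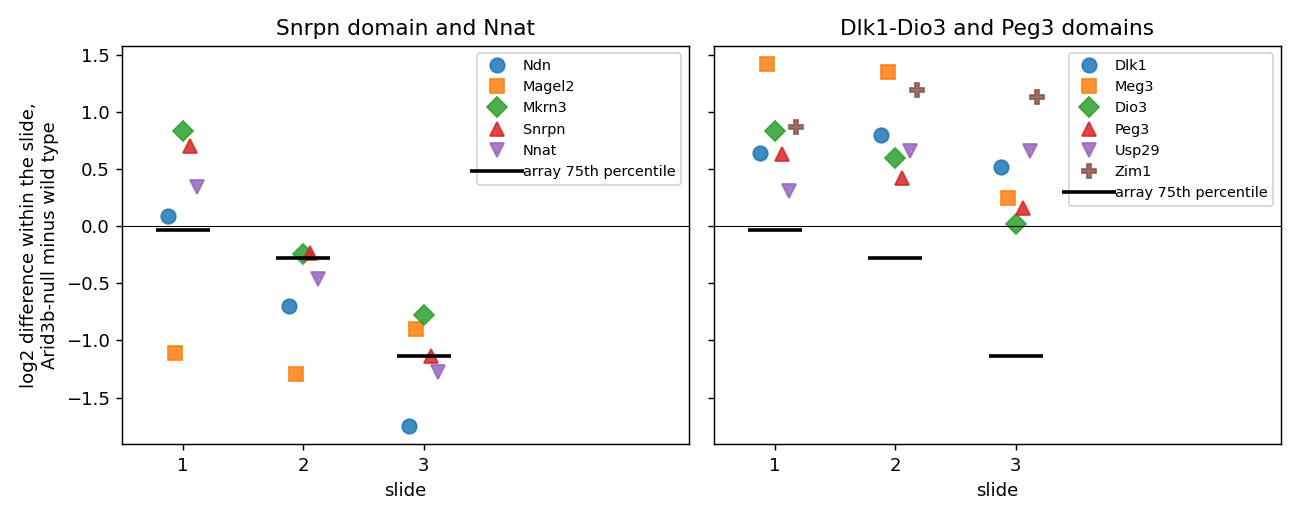
Log2 difference within each slide (Arid3b-null minus wild type, vertical axis) for genes of the Snrpn domain with Nnat (left) and of the Dlk1-Dio3 and Peg3 domains (right), with black bars for the difference in array 75th percentile. Magel2 lies between -1.29 and -0.9 on every slide, while Ndn, Snrpn, Mkrn3 and Nnat go lower over slides 1 to 3.

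Nap1l5 is a retrogene on chromosome 6 that lies inside an intron of Herc3. It stood at -5.72, -5.99 and -5.57 in null pools, against -4.83, -4.77 and -4.77 in wild-type pools, and fell 1.96-fold (-0.97 ± 0.17 SE, adjusted p = 0.0135). Its probe was well above background on every array but dim on all of them. With the normexp background correction the change was 0.08 (adjusted p = 0.754), so neither direction nor call held there. With slide blocking the adjusted p was 0.0839, and it was 0.0601 without null pool 2 and 0.0626 without wild-type pool 2. Its host gene Herc3 had -0.06 (adjusted p = 0.901), and the neighbour Fam13a fell by 0.71 ± 0.16 SE (adjusted p = 0.0315).

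For the imprinted control of insulin-like growth factor (IGF), the ligand Igf2 stood at 4.83, 4.06 and 3.79 in null pools, against 3.42, 3.62 and 4.01 in wild-type pools. The pools overlapped, and the change was 0.54 ± 0.3 SE (adjusted p = 0.291), with 1.41, 0.44 and -0.22 within slides. Igf2r, the maternally expressed receptor that clears IGF2, stood at 4.82, 4.42 and 4.29 in null pools, against 3.87, 3.83 and 3.74 in wild-type pools. Every null pool lay above every wild-type pool, and the change of 0.7 ± 0.18 SE missed the threshold at an adjusted p of 0.0541, which ran between 0.0288 and 0.194 over the alternatives. Airn, the noncoding RNA that silences the paternal Igf2r copy, had 0.26 (adjusted p = 0.405). Grb10, an adaptor that restrains insulin and IGF signalling, had 0.34 (adjusted p = 0.375).

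Of 24 other genes of the insulin and IGF pathway, 22 were measured. By limma 5 rose (22.7%, against 6.64% of all genes) and 0 fell (against 3.81%). The median change was 0.25, and 9 genes (40.9%, against 26.9% of all genes) had an unadjusted p under 0.05. Insr, the insulin receptor, rose by 1.14 ± 0.18 SE (adjusted p = 0.00953). Pappa, a protease that frees IGF from its binding proteins, rose by 0.92 (adjusted p = 0.017). The binding protein gene Igfbp2 stood at 4.71, 4.22 and 3.97 in null pools, against 2.79, 2.64 and 3.27 in wild-type pools, and rose by 1.4 (adjusted p = 0.017). Irs2, which couples these receptors to PI3 kinase, rose by 0.69 (adjusted p = 0.039), and Igfbp3, named after its values were seen, rose by 1.45 (adjusted p = 0.0415). With slide blocking 0 of the 22 passed, with 9 at an unadjusted p under 0.05, and leaving out 1 pool at a time left between 1 and 4. The count was 1 without null pool 2, 2 without wild-type pool 2, 2 on leaving out wild-type pool 3 and 3 on leaving out null pool 3.

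The 4 measured genes of the Peg10-Sgce domain on chromosome 6 had positive changes, as did 52.6% of all genes. Of the 4, 0 passed limma's test, with 2 at an unadjusted p under 0.05 (50%, against 26.9% of all genes). Peg10, a retrotransposon-derived gene needed for placenta, stood at 0.75, -0.58 and -0.31 in null pools, against -0.96, -0.89 and -0.86 in wild-type pools. Null pool 1 stood well above the rest, and the change was 0.86 (adjusted p = 0.146). Without null pool 1 it was 0.46 (adjusted p = 0.159). Sgce, epsilon-sarcoglycan, had 0.43 (adjusted p = 0.235) and Ppp1r9a, the actin-binding neurabin, had 0.27 (adjusted p = 0.353). Asb4, a SOCS box protein of blood vessels, had 0.52 by its brightest probe (adjusted p = 0.137) and 0.72 by its dimmer one (adjusted p = 0.0437).

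The last genes differed little. Mest, a hydrolase-like gene of mesoderm, stood at 5.92, 6.14 and 6.18 in null pools, against 6.19, 6.05 and 5.73 in wild-type pools, a change of 0.09 (adjusted p = 0.793). Plagl1, the zinc finger factor ZAC1, had 0.14 (adjusted p = 0.708). The brighter of its 2 dim probes read 0.68, -0.72 and -0.49 in null pools, against -0.56, -0.64 and -0.6 in wild-type pools, so null pool 1 alone was high there. The matrix proteoglycan gene Dcn had -0.08 (adjusted p = 0.807), the splicing-related retrogene Zrsr1 -0.17 (adjusted p = 0.522) and the translation-related retrogene Mcts2 -0.3 (adjusted p = 0.259). Impact, a regulator of the kinase GCN2, had -0.25 (adjusted p = 0.425). Null and wild-type pools did not overlap for Mcts2 only among these 6.

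To see whether other imprinted genes moved alike, 45 further imprinted or reported imprinted genes were listed, and 32 were measured. Of these, 4 rose (12.5%, against 6.64% of all genes) and 0 fell (against 3.81%) by limma. At an unadjusted p under 0.05 stood 9 (28.1%, against 26.9% of all genes), 2 of them lower. The median change was -0.01, and 9 lay higher in every null pool than in any wild-type pool (28.1%, against 18.1% of all genes), while 3 lay lower (9.38%, against 14.9%). Sfmbt2, a Polycomb-related gene needed for trophoblast, stood at -2.27, -1.62 and -1.08 in null pools, against -3.52, -3.69 and -4 in wild-type pools, and rose by 2.08 ± 0.3 SE (adjusted p = 0.00799). The null pools were all higher, with null pool 3 the highest, as in the trophoblast markers, whose part in this rise was not tested. Calcr, the calcitonin receptor, rose by 0.85 (adjusted p = 0.0207) and Klf14, a Krüppel-like factor, by 0.64 (adjusted p = 0.0488), beside Tspan32 above. With slide blocking 2 of the 32 were called, and 2 were also called without null pool 2, null pool 3, wild-type pool 2 or wild-type pool 3.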

How the data were processed

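Per the labels' protocols, RNA of pooled hearts was amplified, labelled with Cy3 and hybridised in 1 colour. Intensity values and the flag columns were written by Feature Extraction 10.7.3.1 (Agilent, design 026655, build mm9), per the file headers. The authors' deposited table holds log2 values of 24158 probes, but the sources used here do not give how they were made. Signals were set to log2 and each array's 75th percentile was subtracted. Outlier spots were left out, and probes well above background on at least 3 of 6 arrays were kept (26848 of 39429). RefSeq accessions gave symbols (assembly GRCm38.p6) for 26424 probes, and each gene was read from its brightest kept probe. The null against wild-type comparison used limma 3.58.1 under R 4.3.3, two-sided, with Benjamini-Hochberg adjustment over 21800 genes, and single probes were also fitted over all kept probes. In simulated data with 21800 genes this recovered 29.6% of genes shifted by 1 log2 unit and 77% of those shifted by 2. Each simulated run changed 200 genes, fewer than the 2279 called in the real data, so these shares need not hold for the real data.

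Arrays are numbered as pools 1 to 3 in each group. Deviations from the group means correlated at -0.41, -0.09 and -0.41 across genes for pools of the same number, so pools of a slide did not deviate alike. These correlations do not undo the layout, in which each slide held both pools of a number. The fit without a block is the main one, and results with slide blocking are given beside it. The imprinted genes, lists and alternatives were chosen with earlier results of these data known. All 38 listed genes are accounted for, and of other lists up to 4 called genes with the smallest p are named, or the 2 with the smallest p where none was called. Cell type markers are named where a result stands beside them. Alternatives were quantile and median scaling, normexp with an offset of 50, other filters on dim probes, the mean of probes, each single probe, a trended and robust prior, the authors' table, slide blocking (the pool number as a term) and leaving out each pool.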

Additional observations from a re-analysis of the deposited data

How the results depend on the processing

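Of the 6 calls, that of Ascl2 held in all 15 alternatives, with changes between 2.7 and 3.8. Rasgrf1, kept through its null arrays alone, has no value where all 6 arrays must be above background, and its change was between 0.77 and 3.04 in the other 14, which do not bear on that filter. The call of Magel2 was lost with slide blocking alone. The number of imprinted genes called higher, 4, was 2 without a dim-probe filter, 2 with the replicate block, 2 to 3 when a pool was left out, and 3 to 6 in the other settings. The number called lower, 2, was 0 with the replicate block and 1 to 3 when a pool was left out. Their median change, 0.2, was 0.12 with quantile normalization, 0.07 with median scaling, 0.27 with the mean of probes and 0.32 in the authors' table, and 0.12 to 0.27 without a pool. Median scaling moved the median of all genes to -0.11 and gave 1105 genes higher and 1399 lower, against 1448 and 831. The all-gene counts were 754 and 283 with no filter, 539 and 203 with the replicate block, and 592 to 1174 higher and 241 to 579 lower without a pool. The 5 insulin and IGF pathway genes called higher were 2 with no filter, 3 with median scaling, 9 with normexp, and 8 with quantile normalization, the authors' table, the trended prior or the all-array filter. Further imprinted genes called higher, 4, were 2 with no filter, and 1 was lower with median scaling or the mean of probes. Signs changed with normexp for Phlda2 (0.04), Mkrn3 (0.14), Ube3a (0.04) and Nap1l5 (0.08), with quantile and median scaling for Mest (-0.04), with the mean of probes for Mkrn3 (0.05) and Gnas (0.36), and in the authors' table for Gnas (0.68). Other probes reversed Gnas (0.81), Impact (0.04), Mkrn3 (0.16) and Snrpn (0.41). Leaving out a pool gave ranges that crossed 0: -0.25 to 0.34 for Kcnq1ot1, -0.12 to 0.09 for Ube3a, -0.33 to 0.15 for Mkrn3, -0.18 to 0.01 for Dcn, -0.14 to 0.01 for Gnas, -0.47 to 0.07 for Snrpn and -0.04 to 0.19 for Mest. The cause of these reversals was not tested. With 3 arrays a group, 0.5% of simulated shifts of 0.5 log2 units were recovered. The simulation changed 200 genes per run, against 2279 called in the real data, so its adjusted threshold was stricter. How many small differences among these genes were missed cannot be read from it. A gene that was not called may still differ.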

Other observations

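Factors that set or keep imprints in the embryo were listed as well, and 20 of 22 were measured. Tet2, which oxidises methylated cytosine, stood at 1.26, 0.81 and 0.71 in null pools, against -0.45, -0.09 and -0.59 in wild-type pools, and rose by 1.3 ± 0.22 SE (limma adjusted p = 0.0124), also under slide blocking (adjusted p = 0.0438). It was the 1 gene of the 20 at an unadjusted p under 0.05 (5%, against 26.9% of all genes), and 0 fell by limma. The maintenance methyltransferase Dnmt1 had -0.13 (adjusted p = 0.829), the imprint protectors Zfp57 and Zfp445 had -0.12 (adjusted p = 0.818) and 0.01 (adjusted p = 0.981), and their partner Trim28 had -0.55 (adjusted p = 0.187). These 4 were named after their values were seen, and the median of the list was -0.07.

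Markers of yolk sac endoderm and liver, tissues that express several imprinted genes strongly, had 3 of 12 measured genes higher in null hearts. That share was 25%, against 6.64% of all genes. The 3 were Rbp4 (2.37, limma adjusted p = 0.00101), Hnf4a (2.27, adjusted p = 0.0027) and Afp (3.56, adjusted p = 0.0194). The summed linear level of the 12 was 6.71, 5.44 and 6.73 in null pools, against 3.2, 2.42 and 2.77 in wild-type pools. The groups did not overlap in that sum. Much of the null sum came from the called genes Afp and Rbp4, and no sum without them was made. Of the 12, 5 had an unadjusted limma p under 0.05 (41.7%, against 26.9% of all genes). Of the 16 listed, Alb, Apoa1, Apoa4 and Serpina1b had no probe kept. Among 14 fibroblast and mesenchyme markers, 2 rose, Col6a1 (1.56, adjusted p = 0.00565) and Wt1 (1.42, adjusted p = 0.0129), and 1 fell, Thy1 (-1.6, adjusted p = 0.00258). Among 12 genes of pharyngeal mesoderm and endoderm, 2 rose, Sox17 (1.22, adjusted p = 0.00588) and Pax8 (0.91, adjusted p = 0.0423), and 1 fell, Nkx2-1 (-0.79, adjusted p = 0.0474). The shares were 14.3% higher and 7.14% lower for the mesenchyme markers, and 16.7% and 8.33% for the pharyngeal genes. Over all genes they were 6.64% and 3.81%. Slide blocking took the adjusted p of Pax8 to 0.146 and that of Nkx2-1 to 0.148, while the other called genes named in this paragraph stayed under 0.05. The part of these cell types in the changes of the imprinted genes was not tested.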
